A study of Mus musculus with 16 samples.

Results

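Among 9 libraries from the duodenal epithelium of mice with floxed Ephb4, 5 held abundant transcripts of pancreatic digestive enzymes and 4 held almost none. The sets were defined here from the data and are not groups of the study. For each library the normalised read counts of 7 genes made by pancreatic acinar cells (Ctrb1, Cpa1, Cpb1, Prss2, Pnlip, Cela3b and Cela2a) were summed. Flox replicates 4, 6, 7, 9 and 10 exceeded a sum of 1000 and are called the high set, while replicates 1, 2, 3 and 5 did not and are called the low set. The 9 libraries belong to a series of 16, and the 7 libraries of mice lacking Ephb4 in the intestinal epithelium were not used. A normalised count here is the number of reads of a gene after division by the size factor of its library.

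All 9 flox libraries carry Ephb4 alleles flanked by recombination sites and come from mice that were 8 weeks old at the start and then ate a high fat diet for 19 weeks. By label Ephb4 is intact in every one of them. No source used here names the recombinase line, and the labels do not tie each library to a separate mouse. The labels give no batch. They call the material duodenal epithelium, whereas proximal small intestine tissue is the wording of the design text.

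The acinar cells of the pancreas make most of the enzymes that digest a meal and release them through the pancreatic duct into the duodenum. Chymotrypsins, trypsins and elastases cut proteins from within, carboxypeptidases trim their ends, lipases split fat and amylase splits starch. The pancreas lies against the wall of the duodenum. Acinar enzyme genes are switched on together by the transcription factor complex PTF1, which binds a paired site with an E-box and a box close to TTTCCCA. The E-box was searched here only as CACCTG and the other box only as TTTCCCA.

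The promoters of 4 of the 7 genes that chose the sets are printed to show which of them hold these letters. Each run is the 250 bases before the RefSeq start in GRCm38.p6, 5′ to 3′ on the strand of the gene. Capitals mark CACCTG or TTTCCCA, read on either strand. The windows are chr8:111691011-111691260 for Ctrb1 (minus strand), chr6:30638968-30639217 for Cpa1, chr6:41521526-41521775 for Prss2 and chr19:58670115-58670364 for Pnlip (plus strand).
Ctrb1: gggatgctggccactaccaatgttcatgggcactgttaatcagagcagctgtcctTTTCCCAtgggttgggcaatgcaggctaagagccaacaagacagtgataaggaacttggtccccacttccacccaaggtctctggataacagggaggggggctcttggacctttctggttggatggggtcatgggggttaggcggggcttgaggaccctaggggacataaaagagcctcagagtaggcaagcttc
Cpa1: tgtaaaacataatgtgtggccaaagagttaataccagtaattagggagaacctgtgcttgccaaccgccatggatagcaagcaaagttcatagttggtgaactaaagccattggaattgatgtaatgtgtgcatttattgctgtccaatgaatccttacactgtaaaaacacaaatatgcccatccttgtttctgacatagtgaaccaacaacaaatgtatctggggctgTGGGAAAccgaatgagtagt
Prss2: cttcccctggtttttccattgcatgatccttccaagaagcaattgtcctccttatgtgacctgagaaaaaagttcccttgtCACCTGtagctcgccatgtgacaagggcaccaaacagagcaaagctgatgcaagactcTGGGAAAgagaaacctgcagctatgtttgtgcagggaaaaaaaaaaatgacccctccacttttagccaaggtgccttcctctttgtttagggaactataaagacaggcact
Pnlip: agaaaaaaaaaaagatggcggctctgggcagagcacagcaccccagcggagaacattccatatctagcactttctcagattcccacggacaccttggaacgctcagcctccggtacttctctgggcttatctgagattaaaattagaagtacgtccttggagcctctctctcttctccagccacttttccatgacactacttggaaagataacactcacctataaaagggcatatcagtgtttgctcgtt

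CACCTG was present in 4 of the 7 promoters (57.1%), against 17.2% of all 32851 promoters in the RefSeq table. TTTCCCA was present in 4 of 7 (57.1%), against 6.82%. Both occurred in the same window in Prss2 and Cela2a, 28.6% of the 7, against 1.17% of all promoters. The printed window of Pnlip held neither run of letters. Of the 20 acinar genes in the deposited table outside these 7, 15 had a promoter in the RefSeq table. Among these 15, CACCTG was found in 6, TTTCCCA in 1 (6.67%) and both in 1. A match is a run of letters in this window, not a measured binding site. Other forms of either box were not searched, so a window without a match can still hold one. The spacing between CACCTG and TTTCCCA was not considered, so these are not counts of the paired site.

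The deposited table held 2438 genes, each with an adjusted p of the authors of at most 0.0497 for mice lacking Ephb4 against flox mice over these same flox libraries. A gene that was high only in some flox libraries could be listed for that reason, and a gene that varied widely could be missed. Other genes were not analysed here. The listed genes held 4237178 to 5316273 reads per library in the low set and 4680103 to 5009883 in the high set. The total depth per library is unknown. Size factors ran from 0.878 to 1.05. No pair of libraries was a duplicate: the reads of the closest pair differed with a chi-square of 16.7 per degree of freedom.

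The enzymes that chose the sets form a range, not 2 levels. The summed 7 genes were 12.1, 10.4, 47.6 and 45.4 normalised counts in replicates 1, 2, 3 and 5, that is 11, 10, 47 and 44 reads. They were 18800, 22732, 4098, 6206 and 87710 in replicates 4, 6, 7, 9 and 10. The lowest library of the high set, replicate 7, stood 86.1 times above the highest of the low set, replicate 3, and no library lay near the threshold of 1000. The low set was not free of these transcripts. In bulk tissue, fewer cells of a type and less RNA per cell cannot be told apart, so the range is one of transcript amount only. Because these values chose the sets, they are a description and were not tested.

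Ctrb1, chymotrypsinogen B (8:111686519 to 111691010, GRCm38, minus strand), was the most abundant of the 7 in each library of the high set. Its normalised counts were 5684, 6679, 1193, 1810 and 27361 in replicates 4, 6, 7, 9 and 10 and 3.31, 4.16, 20.3 and 12.4 in replicates 1, 2, 3 and 5. Pnlip, pancreatic lipase (19:58670365 to 58681786, plus strand), was at 3234, 4432, 658, 1151 and 15969 in the same 5 libraries and at 2.21, 3.12, 5.07 and 4.12 in the 4 others. Cpa1, carboxypeptidase A1 (6:30639218 to 30645363, plus strand), was at 1615, 2374, 406, 587 and 9479 against 2.21, 1.04, 2.03 and 4.12. The 3 acinar markers thus ranked the 5 high libraries in the same order, with replicate 10 highest and replicate 7 lowest, and none overlapped between the sets.

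Prss2, an anionic trypsinogen (6:41521787 to 41525079, plus strand), was at 2203, 3065, 533, 735 and 10793 in replicates 4, 6, 7, 9 and 10 and at 0, 0, 3.04 and 9.28 in replicates 1, 2, 3 and 5. Cpb1, carboxypeptidase B1, ran from 447 to 8970 in the high set and from 1.03 to 7.09 in the low set. The elastase genes Cela3b and Cela2a ran from 278 to 7694 and from 583 to 7444 in the high set, with at most 8.25 in the low set. Prss2, Try4, Try5 and 2210010C04Rik are trypsinogen genes of 1 family with similar sequences, so the split of reads among them is uncertain.

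**Figure D1:**
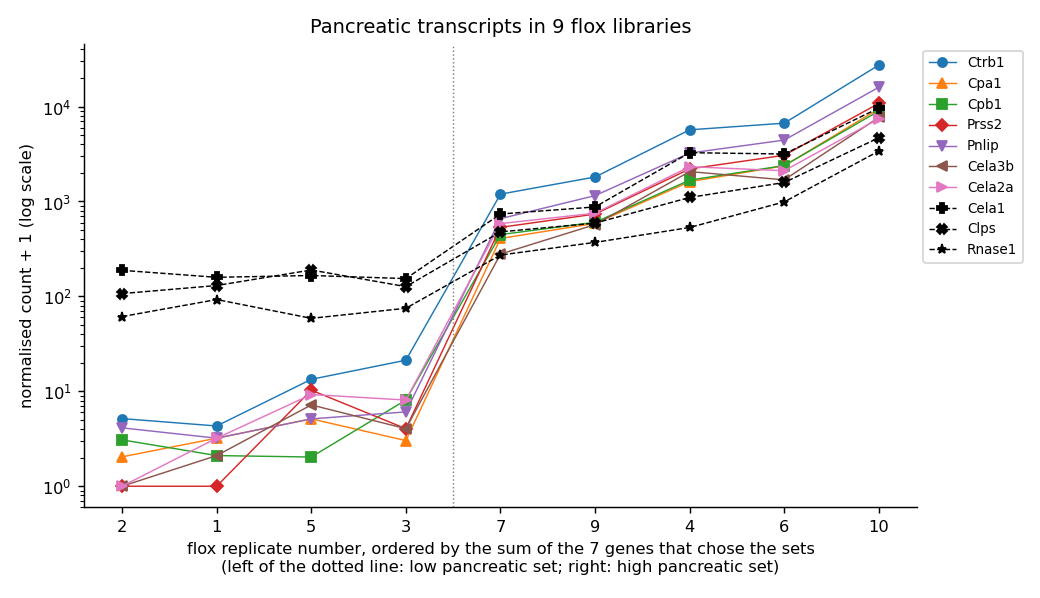
Normalised count + 1 (log axis) of the 7 genes that chose the sets (coloured) and of Cela1, Clps and Rnase1 (black, dashed) in each flox library, ordered by the sum of the 7. The coloured genes jump together between replicates 3 and 7 and climb to replicate 10, while the black genes start from a floor of 57.7 or more in every library of the low set.

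Of the 20 acinar genes in the table outside the 7, 18 were higher in every library of the high set than in any of the low set. The same held for 0.448% of the tested genes outside the acinar list. Acinar genes share their source with the 7, so nothing is read from this count. The exceptions were Spink1 and Ctrc. Spink1, a trypsin inhibitor, was at 5959 to 11337 in the high set and 5253 to 11801 in the low set. Ctrc, chymotrypsin C, was at 0.956 to 34.1 and 0 to 1.10. Spink1 was left out of summed levels after its values were seen. The 26 acinar genes without Spink1 made up 0.150% (exact 95% interval 0.146% to 0.153%) of the reads in listed genes in replicate 7 and 2.60% (2.58% to 2.61%) in replicate 10. They made up 0.00476% to 0.00779% in the low set. Such intervals cover counting error only.

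Within the high set some enzymes kept nearly fixed proportions to Ctrb1 and others did not. Of 25 genes, the ratio to Ctrb1 had a coefficient of variation under 10% for 7, of 10% to under 30% for 9 and of 30% or more for 9, with a median of 23.2%. Relative to Ctrb1, Prss2 was at 0.388 to 0.459, Pnlip at 0.551 to 0.664 and Cpa1 at 0.284 to 0.355 over the 5 libraries, with a coefficient of variation of 7.63%, 7.87% and 8.52%. The lipase relative Pnliprp1 varied least, at 0.199 to 0.225 (5.44%), and Cel, carboxyl ester lipase, ran from 0.267 to 0.333 (8.49%). Cela2a varied more, from 0.272 in replicate 10 to 0.489 in replicate 7 (22.7%). Try5 varied 4.01-fold, from 0.0793 in replicate 7 to 0.318 in replicate 10. Clps (36.0%) and Rnase1 (34.9%), which also had a level in the low set, and the weakly expressed Serpini2 (47.2%) were among the most variable. These are ratios of counts with no correction for gene length, so they compare libraries and not genes.

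Pancreatic amylase varied widely. The near-identical genes Amy2a1, Amy2a3, Amy2a5 and Amy2b together gave 1115, 1843, 378, 182 and 2994 normalised counts in replicates 4, 6, 7, 9 and 10. Their sum relative to Ctrb1 ran from 0.101 in replicate 9 to 0.317 in replicate 7, a 3.14-fold range. Replicate 9 thus held less amylase than replicate 7 although it held more Ctrb1. The leading copy also differed. Amy2a1 held 57.0% of amylase reads in replicate 4, Amy2a5 73.5% in replicate 6, Amy2a3 84.1% in replicate 7 and 61.6% in replicate 9, and Amy2b 44.3% in replicate 10. The copies are so alike that this assignment of reads is uncertain.

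**Figure D2:**
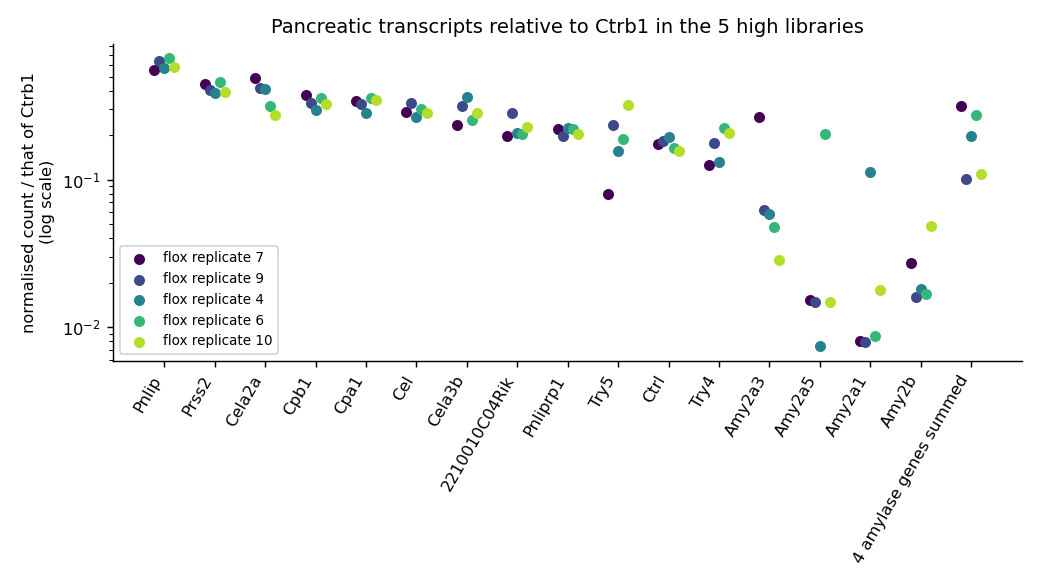
Normalised count of each pancreatic gene divided by that of Ctrb1 in the same library (log axis), for the 5 libraries of the high set. Pnlip, Prss2, Cpa1 and Pnliprp1 form tight groups of points, whereas the single amylase genes spread over 3.05-fold to 27.3-fold.

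Some acinar genes had more normalised counts than Ctrb1 in each library of the low set. Clps, colipase, the cofactor of pancreatic lipase, was at 129, 106, 125.6 and 189 in replicates 1, 2, 3 and 5, and at 477 to 4691 in the high set. Rnase1, pancreatic ribonuclease, was at 57.7 to 91.6 in the low set and 272 to 3395 in the high set. Ctrl, a chymotrypsin-like protease, was at 13.2 to 25.8 in the low set. In the high set its ratio to Ctrb1 varied little (coefficient of variation 8.80%).

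Cela1, elastase 1 (15:100674421 to 100687921, minus strand), belonged with these. It was at 158, 187, 153 and 165 normalised counts in the low set and at 3264, 3160, 736, 875 and 9652 in replicates 4, 6, 7, 9 and 10. Its excess over the low-set mean was 0.347 to 0.545 of Ctrb1. The list of acinar genes left out of the test did not hold Cela1, so it remained among the tested genes. Its level ran with the enzymes that chose the sets, so its log2 difference of 3.79 ± 0.68 (SE) is given as a description.

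Against this, the comparison asked whether the libraries with pancreatic transcripts differed from the others in genes outside the acinar list. Of 2233 genes with a mean of at least 10 normalised counts, 0 passed an adjusted p under 0.05 in limma (0%). The smallest adjusted p was 0.724, for Cela1, and the next was 0.796. At an unadjusted p under 0.05 there were 127 genes (5.69%), 90 higher (4.03%) and 37 lower (1.66%) in the high set. edgeR's quasi-likelihood test on the recovered reads called 0 genes, with 119 at an unadjusted p under 0.05, and DESeq2 called 1, Cela1, with 140. With size factors replaced by the total of non-acinar reads, 69 were higher and 56 lower at an unadjusted p under 0.05. Leaving out replicate 1, 5 or 9 changed the unadjusted count to 66, 236 or 82. All p-values measure only the spread between these libraries, which may be technical.

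A count of 0 does not show that the sets were alike. The median standard error of the log2 difference was 0.15, and the 95% interval lay within 1 log2 unit of 0 for 1878 genes (84.1%). For the other 355 genes the interval reached 1 log2 unit or beyond. Their mean was 28.8 normalised counts in the median, against 734 for the 1878. An absolute log2 difference of 1 or more was seen in 25 genes, 7 of them with a mean of at least 50. Complete separation of the sets was seen for 17 genes (0.761%), 10 higher (0.448%) and 7 lower (0.313%).

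**Figure D3:**
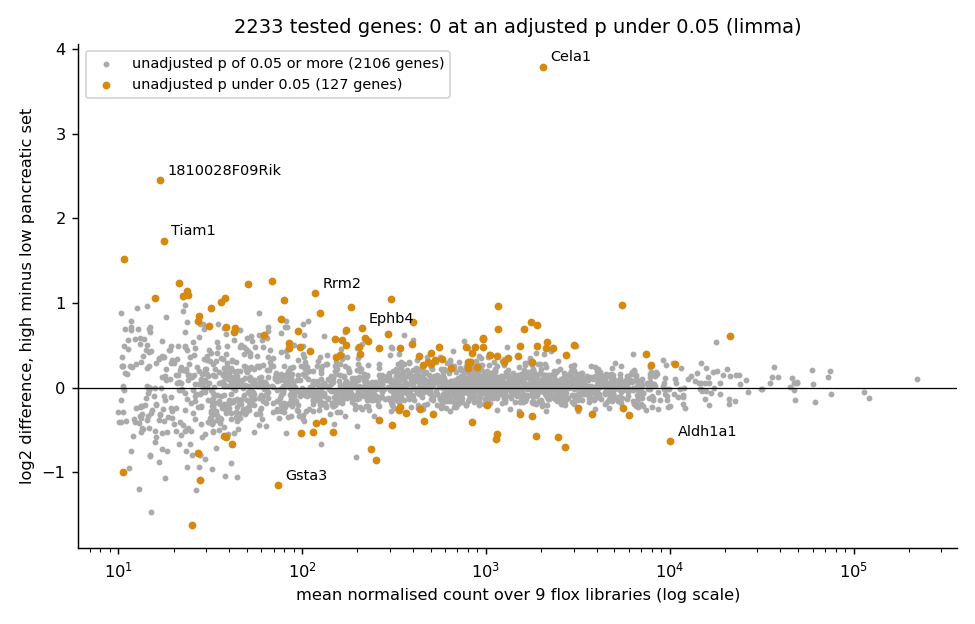
Log2 difference of the high minus the low set against the mean normalised count (log axis) for 2233 genes, with 127 genes at an unadjusted p under 0.05 in orange. Cela1 stands alone at 3.79, and scatter narrows as counts rise.

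Over the tested genes, the first principal component (30.7% of variance) did not separate the sets, which ran from -15.38 to 14.89 (low) and from -8.99 to 7.90 (high). On the next component (24.9%) the low set ran from -15.38 to -0.01. There 4 libraries of the high set lay above it, up to 10.51, while replicate 4 lay at -10.74. The root mean square log2 difference of a pair had a median of 0.50 within the high set (10 pairs), 0.58 within the low set (6 pairs) and 0.57 across the sets (20 pairs). Replicate 2 had the highest value on the first component and the lowest on the next.

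Among the lists with at least 5 tested members, cell proliferation had the largest median difference. Its 24 tested members (of 24 listed in the table, from a list of 35) all had higher mean log2 values in the high set, where 56.8% of all tested genes did. Their median log2 difference was 0.62, against 0.03 over all genes tested. At an unadjusted p under 0.05 there were 6 higher and 0 lower, where 4.03% and 1.66% of all tested genes were, and 0 passed adjustment. The summed list ran from 2413 to 5716 in the high set and from 2003 to 3550 in the low set, so the sets overlapped. It was 2003, 3275, 2009 and 3550 in replicates 1, 2, 3 and 5 and 2413, 4038, 4958, 5716 and 3328 in replicates 4, 6, 7, 9 and 10. The order did not follow the pancreatic content, since replicate 10 was below replicate 5.

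Rrm2, a subunit of ribonucleotide reductase, which makes the building blocks of DNA, had the second smallest p of all genes that were higher. It was at 40.8, 88.4, 47.6 and 129 in replicates 1, 2, 3 and 5 and at 175, 164, 147, 125.8 and 142 in replicates 4, 6, 7, 9 and 10. Only replicates 5 and 9 overlapped, and the log2 difference was 1.11 ± 0.29 (SE; limma unadjusted p 0.00189, adjusted p 0.796). Top2a, a topoisomerase of dividing cells, was at 102, 257, 115 and 311 in the low set and at 180, 399, 420, 601 and 342 in the high set. Its log2 difference was 1.04 ± 0.36, with replicate 4 below replicates 2 and 5. Mki67, the standard marker of cycling cells, was at 164, 405, 180 and 413 against 227, 478, 637, 719 and 397, a log2 difference of 0.78 ± 0.34.

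The other members at an unadjusted p under 0.05 were Stmn1 (a microtubule regulator, 0.95 ± 0.32), Birc5 (survivin, needed to separate chromosomes, 0.68 ± 0.22) and Mcm7 (part of the replicative helicase, 0.56 ± 0.25), given as log2 differences with their SE. None separated the sets. Replicates 1 and 3 were the lowest of the 9 libraries for Stmn1, Birc5, Mcm7 and Mki67, and replicate 4 was the lowest of the high set for all 4. Without replicate 4 the median difference of the list was 0.86 and 18 members had an unadjusted p under 0.05. Without replicate 5 there were 12 such members, with a median of 0.78, and in DESeq2 there were 10. Over all 2233 genes there were 168 without replicate 4, 236 without replicate 5 and 140 in DESeq2, against the 127 above. The count of the list fell from 6 to 4 without replicate 1, 3, 6, 7 or 9 and under TMM or total scaling. Over all genes the count in those settings ran from 66 without replicate 1 to 160 without replicate 3. The list count was also 4 with the log2 pancreatic sum as a continuous predictor, where that over all genes was 184. In that setting and without replicate 9, 22 of the 24 differences were positive. In each of these cases 0 passed adjustment.

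Genes of mature enterocytes, the absorptive cells that make up most of the lining, had log2 differences from -0.17 to 0.25. All 13 members had a 95% interval within 1 log2 unit, 0 had an unadjusted p under 0.05 and their median was 0.05. Rbp2, which carries retinol in the enterocyte, was at 125418, 128550, 141018 and 113627 in replicates 1, 2, 3 and 5 and at 133177, 93538, 128799, 120953 and 111780 in the high set, so the sets overlapped. The log2 difference of Fabp1, a fatty acid carrier, was 0.13 (interval -0.30 to 0.57), and that of Vil1, a microvillus protein, 0.05 (-0.21 to 0.31). The lowest value of these 3 enterocyte markers in any library was 50253, for Fabp1 in replicate 2.

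Genes of fat handling had medians near that of all genes. The 18 tested genes for taking up fat and packing it into chylomicrons included 0 higher and 1 lower at an unadjusted p under 0.05 (1.66% of all genes were lower), and their median was -0.04. Differences were positive for 5 of the 18, where 56.8% of all tested genes were positive. Without replicate 3 there were 0 at that p, 11 differences were positive and the median was 0.04. The 1 lower gene was Cd36, a fatty acid translocase, at 2927, 3083, 3828 and 2206 in the low set and 1362, 1488, 2524, 2760 and 2101 in the high set (-0.58 ± 0.21, limma adjusted p 0.823). Of 16 genes of fatty acid oxidation, Slc25a20, the carnitine carrier of mitochondria, was the 1 gene at an unadjusted p under 0.05, at 2314, 1736, 2094 and 1926 against 1718, 1475, 1728, 1437 and 1590. Its sets did not overlap and its log2 difference was -0.34 ± 0.11 (limma adjusted p 0.796). The median of that list was -0.04, with 8 of 16 differences positive, and 0.01 in edgeR and DESeq2. Its count was 3 without replicate 3, by total scaling or with the log2 pancreatic sum as a continuous predictor. It was 4 without replicate 5, and 2 without replicate 2, 7 or 10, under TMM and in DESeq2. Over all 2233 genes the count in these settings ran from 92 without replicate 10 to 236 without replicate 5, against the 127 above.

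Nuclear genes of oxidative phosphorylation had differences in the other direction. All 8 had positive differences, with a median of 0.25, and 2 had an unadjusted p under 0.05, where 56.8% of all genes were positive and 4.03% higher at that p. There were 0 in edgeR and without replicate 1, 2, 4 or 10, 1 without replicate 6 or 9, 3 under TMM or without replicate 7, and 4 without replicate 3 or 5. With the log2 pancreatic sum as a continuous predictor there were 6. Over all 2233 genes the count in these settings ran from 66 without replicate 1 to 236 without replicate 5. It was 184 with that predictor, against the 127 above. The median of the list without replicate 4 was 0.17. Ndufa2, a subunit of complex I, was at 637, 761, 1785 and 1921 in the low set and at 2838, 1645, 1329, 1873 and 1766 in the high set (0.69 ± 0.31). Ndufb8, another subunit, had a difference of 0.35 ± 0.15. For Ndufa2 replicates 1 and 2 were low, and replicates 3 and 5 lay inside the range of the high set. Gene length moved with the direction. The 90 genes at an unadjusted p under 0.05 that were higher had a median length of 3050 bases, those lower 3931 and all tested 4132, and its part in the result was not tested.

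**Figure D4:**
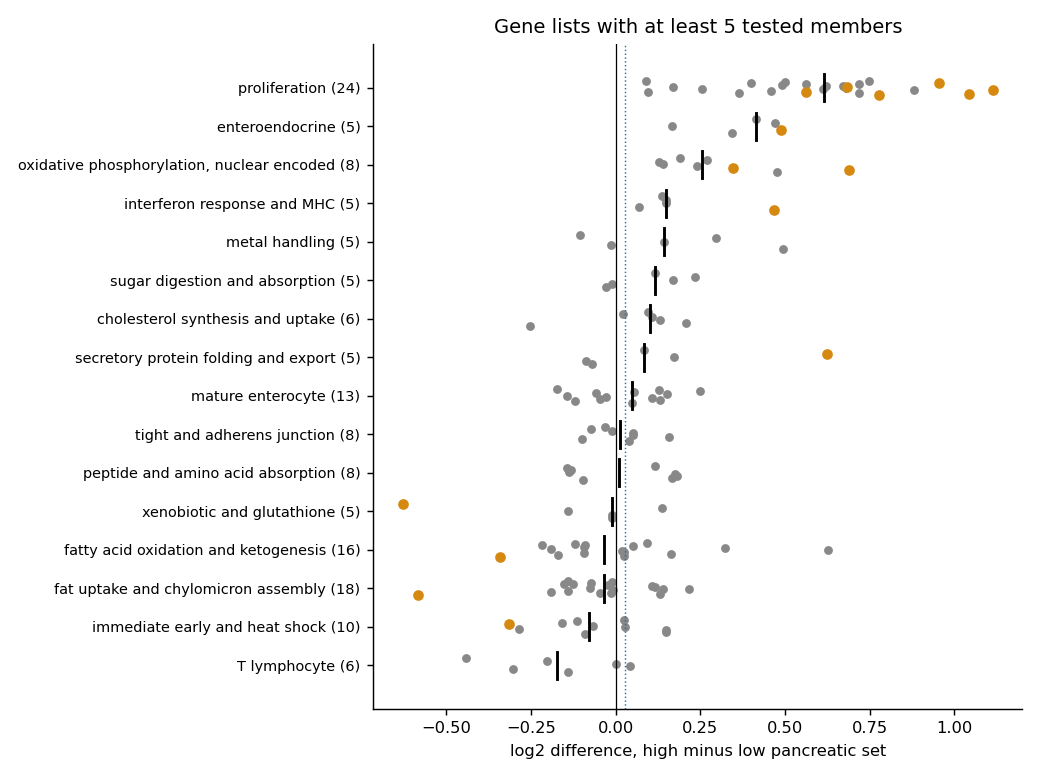
Log2 difference of each tested member of the 16 gene lists with at least 5 tested members, with list medians as black bars, the median of all genes as a dotted line and an unadjusted p under 0.05 in orange. The proliferation list lies right of 0 for every member, and the enterocyte list straddles it.

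Enteroendocrine genes, which encode the hormones and granule proteins of scattered secretory cells, had a median of 0.42 over 5 genes, and of 0.24 without replicate 4. Chgb, a granule protein, was at 1320, 1305, 1856 and 1719 in the low set and 2732, 1803, 2266, 2279 and 1792 in the high set (0.49 ± 0.15). It was the only one with an unadjusted p under 0.05, where 4.03% of all tested genes were higher at that p. Its value in replicate 3 overlapped the high set. The count was 4 without replicate 3 or 6, and 3 under TMM or with the log2 pancreatic sum as a continuous predictor. It was 2 without replicate 5 or 7, by total scaling and in DESeq2. Over all 2233 genes the count in these settings ran from 103 without replicate 6 to 236 without replicate 5, against the 127 above. Gip, the incretin hormone, had a difference of 0.42 ± 0.20 and was highest in replicate 4.

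Among the genes that were lower in the high set, the smallest p was that of Gsta3. Gsta3, a glutathione transferase, was at 51.9, 142, 132 and 105 in the low set and at 44.4, 35.3, 67.9, 52.8 and 31.9 in the high set (-1.15 ± 0.31). Replicate 1 overlapped the high set. Aldh1a7, an aldehyde dehydrogenase, was at 1318, 1407, 1497 and 1305 against 997, 716, 1246, 1092 and 786 with no overlap (-0.54 ± 0.15). Its close relative Aldh1a1, which makes retinoic acid, was at 10737, 13171, 12705 and 12720 against 5673, 7396, 11072, 10573 and 6474, and replicates 1 and 7 overlapped (-0.63 ± 0.18). Reads of these related genes can be split uncertainly.

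The other genes of this kind were Vnn1, a pantetheinase (-0.60 ± 0.19), Bok, a relative of the cell death regulator Bcl2 (-0.85 ± 0.29), Lpcat3, which remodels membrane phospholipids (-0.33 ± 0.11), and Camk4, a calcium-dependent kinase (-0.53 ± 0.18). Lpcat3 and Camk4 did not overlap between the sets. None of the genes named here passed adjustment. Of the 8 with the smallest p that were higher, besides Cela1, Rrm2 and Chgb, Fbxw9 had a difference of 0.48, Abhd17a 0.50, Fam213b 0.55 and Tiam1, which activates the small GTPase Rac, 1.74 ± 0.51. Tiam1 had few counts, at 7.73, 3.12, 3.04 and 20.6 in the low set and 14.8, 22.9, 27.7, 34.6 and 24.2 in the high set. The sets overlapped, and the low-set mean of 8.63 was under the filter of 10. With a pseudocount of 10 its difference was 0.97. The gene 1810028F09Rik was at 7.73, 4.16, 1.01 and 1.03 in the low set and at 15.9, 29.6, 5.74, 11.5 and 74.8 in the high set (2.45 ± 0.71). It ranked replicates 10, 6, 4, 9 and 7 in the same order as Ctrb1. In the low set it was highest in replicate 1, where Ctrb1 was lowest at 3.31. The sets overlapped, since replicate 1 lay above replicate 7. Its mean was 3.48 in the low set, under the filter of 10. Its position is 14:51142870 to 51144117, next to the acinar gene Rnase1 (14:51144998 to 51146785), both on the minus strand. Whether its reads share the source of the acinar transcripts was not tested.

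**Figure D5:**
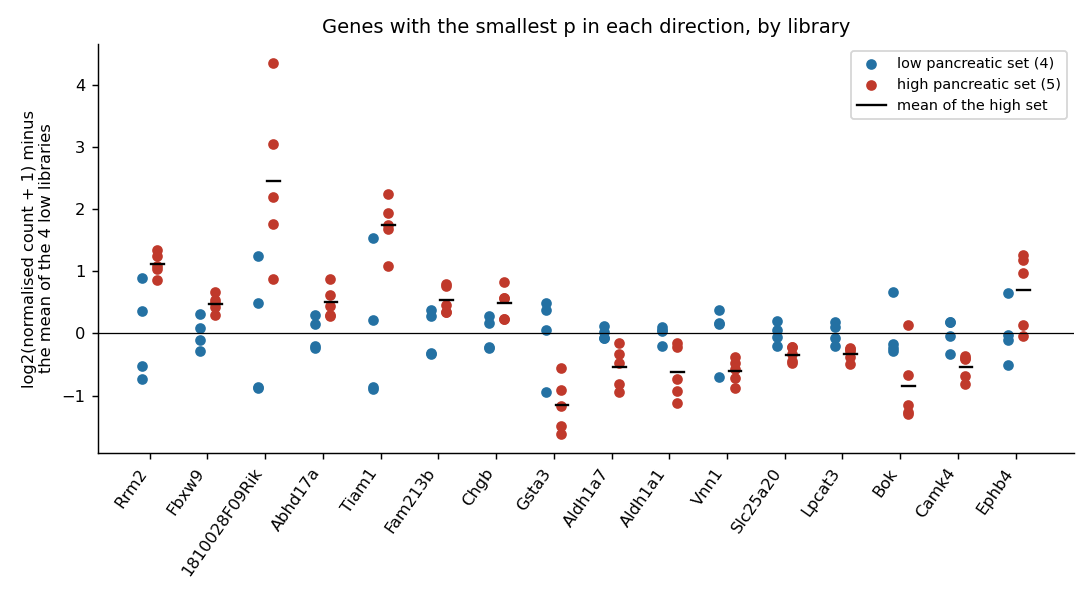
Log2(normalised count + 1) in each library minus the mean of the 4 low libraries, for the genes with the smallest p in each direction (without Cela1) and Ephb4, with the low set in blue, the high set in red and a bar at the mean of the high set. The points of Aldh1a7, Slc25a20, Lpcat3 and Camk4 separate, while most others meet.

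The remaining lists with at least 5 tested members gave few genes. The median was 0.01 over 8 genes of peptide absorption, 0.12 over 5 of sugar absorption, 0.10 over 6 of cholesterol synthesis and 0.01 over 8 of cell junctions, each with 0 genes at an unadjusted p under 0.05. It was 0.14 over 5 genes of metal handling, also with 0, and -0.17 over 6 genes of T lymphocytes, also with 0. Of all tested genes, 4.03% were higher and 1.66% lower at that p. Xenobiotic metabolism had 1 lower of 5, Aldh1a1 (median -0.01), and immediate early and heat shock genes 1 lower of 10, Hsp90aa1, a chaperone (-0.31 ± 0.12, list median -0.08). Interferon and MHC genes had 1 higher of 5, Psmb8, a subunit of the immunoproteasome (0.47 ± 0.17, list median 0.15). Secretory protein folding, which acinar cells also use, had 1 higher of 5, Srp54a (0.62 ± 0.23, list median 0.08), a part of the signal recognition particle.

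Of the 12 lists with 1 to 4 tested members, antimicrobial defence had Reg3a, a lectin that binds bacteria, at -0.70 ± 0.24, the 1 lower gene at an unadjusted p under 0.05. It was at 4126, 2894, 3924 and 2582 in the low set and 1213, 1791, 2774, 3163 and 1841 in the high set, which overlapped. The Eph list had 1 higher, Ephb4, and the other 10 lists had 0. Of all tested genes, 4.03% were higher and 1.66% lower at that p. The medians of these 10 lists were 0.19 for 3 goblet genes, 0.10 for 2 tuft genes, 0.06 for 2 mast cell genes, 0.06 for 1 adipocyte gene and -0.06 for 1 stem cell gene. They were -0.25 for 1 gene of Brunner glands, -0.09 for 4 of the B lineage, -0.00 for 2 of the clock, -0.54 for 3 of stroma and -0.49 for the endothelial marker Pecam1. The islet and duct, Paneth, macrophage, neuron and erythroid lists had 0 tested members.

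Summed markers of the B lineage, stroma and endothelium were highest in replicate 2. The summed B lineage list was 469 in replicate 2 and at most 307 elsewhere in the low set and 226 in the high set. The summed stroma list was 512 in replicate 2 and at most 257 elsewhere in the low set and 317 in the high set. Dcn, a collagen-binding proteoglycan of fibroblasts, was at 13.2, 79.0, 8.11 and 20.6 in the low set and 18.2, 10.5, 21.0, 17.3 and 4.40 in the high set. Pecam1, the endothelial marker tested, was at 95.6 in replicate 2 and at most 52.6 elsewhere. Some other lists had their highest sum in the high set: mast cell genes at 58.3 and goblet genes at 159575 in replicate 10, and adipocyte genes at 3428 and enteroendocrine genes at 10833 in replicate 4. The sets overlapped for each of these lists. Their part in other differences was not tested.

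Ephb4 itself (5:137350109 to 137378669, plus strand), the receptor that is targeted in the mice not used here, was at 103, 143, 136 and 231 in replicates 1, 2, 3 and 5 and at 162, 287, 354, 336 and 143 in replicates 4, 6, 7, 9 and 10. The mean was 256 ± 98.2 in the high set (SD, n = 5) and 153 ± 54.8 in the low set (SD, n = 4). The mean log2(normalised count + 1) differed by 0.71, and an exact permutation test gave p = 0.111 (two-sided, 5 against 4 libraries, smallest possible 0.0159). The sets overlapped, since replicates 4 and 10 lay below replicate 5. The related receptor Epha1 had a difference of 0.03 ± 0.10 (-0.01 when scaled by the total of non-acinar reads) and the ligand Efnb1 0.11 ± 0.14.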

How the data were processed

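The data were one table of RNA sequencing of mouse duodenal epithelium. The labels' protocols give TRIzol extraction, poly-T bead selection and a NEBNext Ultra kit. The tools in the submitters' processing notes are DESeq2 1.20.0, featureCounts 1.5.0-p3 and HISAT2 2.0.5, and the build is GRCm38 (mm10). The deposited signal per library is a read count divided by a size factor: in each flox library 100% of nonzero values came out as whole reads, within 0.0001 reads. The deposited log2 fold changes and p-values of the authors compare other groups, and of these only the p-values were used here, to describe the selection. Their adjustment ran over 16488 genes. The sets, members and gene lists (33 besides the pancreatic one) were chosen with earlier results of these data known.

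limma 3.58.1 (R 4.3.3; trend, robust) was fitted to log2(normalised count + 1) of 2233 genes with a mean of at least 10 over the 9 flox libraries, with 178 dropped and no covariate. Listed acinar genes were left out. Cela1 was not on that list and stayed. Two-sided p-values were adjusted by Benjamini-Hochberg over the 2233, and called under 0.05. A fold change on this scale understates that of low genes. Ephb4 was tested by an exact permutation test of 5 against 4 libraries. edgeR 4.0.16 and DESeq2 1.42.0 were run on recovered reads. Code was tested on simulated data. Alternatives varied the pseudocount, filter, scaling, tool, adjustment, predictor, acinar genes and libraries.

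Named were Ephb4, the acinar genes, the 8 genes with the smallest p in each direction (as fewer than 5 were called) and up to 3 members per list. Mcm7, Top2a, Mki67, Rbp2, Fabp1, Vil1 and genes whose sets separated were added after their values were seen or as fixed cell type markers. Promoters were RefSeq's for GRCm38.p6, matched by symbol.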

Additional observations from a re-analysis of the deposited data

Results flagged for a closer look

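A library far from the others of its set was looked for in 198 groups of values, and 34 were found (17.2%, where chance gives about 1 in 20). Of these, 30 were in the high set and 4 in the low set, and 23 were flox replicate 10. Pancreatic genes share their source, so these are not separate events. The groups also include the genes that chose the sets and their sum. The 17.2% therefore cannot be read against the chance share.

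In replicate 10 the summed 7 genes stood apart at 87710 normalised counts. So did Ctrb1 at 27361, Pnlip at 15969, Prss2 at 10793, Cela1 at 9652, Cpa1 at 9479, Cpb1 at 8970, Try5 at 8703, Cela3b at 7694, Cel at 7682 and Cela2a at 7444. Try4 at 5674, Pnliprp1 at 5546, Clps at 4691, Ctrl at 4266, Rnase1 at 3395, Sycn at 3299, Amy2b at 1326 and Gp2 at 904 did as well. Amy2a5 stood apart in replicate 6 at 1354 and, in the low set, in replicate 3 at 3.04.

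Outside the pancreas, replicate 10 stood apart in its set for Ezr, which links the microvillus membrane to actin, at 34223, for the amino acid transporter Slc43a2 at 19045 and for the sugar transporter Slc5a11 at 4025. Replicate 4 did for the fructose kinase Khk at 18244, the peroxisomal thiolase Acaa1a at 12868 and the hormone Gip at 3318. In the low set, Bok stood apart in replicate 3 at 510.6 and the chaperone Hsp90ab1 in replicate 1 at 4441, the latter on the low side.

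Among genes picked because their sets separated, replicate 10 stood apart for Rab43 at 355, replicate 9 for Slc7a5 at 64.3 and, on the low side, for Dusp8 at 253, and replicate 7 for Zhx3 at 769. In the low set Phf6 stood apart in replicate 2 at 159.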

How the results depend on the processing

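No paired analysis was possible because both sets are flox libraries and share no replicate number. The count of genes passing an adjusted p of 0.05 was 0 with a pseudocount of 0.5 or 10, no filter, a mean of at least 50, TMM or total scaling, adjustment over 16488 genes, edgeR, and Cela1 left out. It was 1 with DESeq2 and with the log2 pancreatic sum as a continuous predictor, and 0 to 1 when each library was left out (1 without replicate 7 or 10). Each of these was Cela1, with log2 values of 4.42 in DESeq2, 4.20 and 3.27 without replicates 7 and 10, and 0.42 per log2 unit of the sum. With acinar genes kept it was 22, all acinar, of 2259 genes. These include the genes that chose the sets and others of the same source, so nothing is read from that count. Leaving out Cela1, and the pancreatic sum by TMM, by total scaling and over 26 genes, were alternatives chosen after seeing the data. The unadjusted count ran from 66 to 236 without 1 library, and the share higher from 70.9% to 55.2% with total scaling. Small differences changed sign when 1 library was left out: Fabp1 (-0.011 to 0.32), Vil1 (-0.018 to 0.10, with -0.0024 without replicate 5), Cd3e (-0.34 to 0.0094), Mcpt1 (-0.15 to 0.39) and Epha1 (-0.026 to 0.096, and -0.011 by total scaling). The cause was not tested. The median of the proliferation list ran from 0.43 to 0.86 without 1 library and was 0.05 per log2 unit of the sum. Total depth is unknown, and genes with few reads had the widest intervals.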

Other observations

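The genes below were picked after their values were seen, so their values are given with no test of their own. The genes whose sets separated upward, besides Cela1 and Srp54a, were Rab43, Cenpi, Rtel1, Telo2, Slc7a5, Zhx3, Tmem63b and Otub1. Slc7a5, a large neutral amino acid transporter, was at 19.9, 34.3, 22.3 and 38.1 normalised counts in replicates 1, 2, 3 and 5 and at 41.0, 44.9, 45.9, 64.3 and 38.5 in replicates 4, 6, 7, 9 and 10. Its log2 difference was 0.72 ± 0.28, and replicates 5 and 10 lay less than 1 read apart, so the separation depends on the size factors. Cenpi, a centromere protein of dividing cells, was at 8.83, 2.08, 3.04 and 6.19 against 9.11, 16.2, 22.0, 18.2 and 11.0. Replicates 1 and 4 lay less than 1 read apart, so this separation also depends on the size factors. A read was 1.10 normalised counts in replicate 1 and 1.14 in replicate 4. The mean of Cenpi was 5.03 in the low set, under the filter of 10, and 10.7 over the 9 libraries. The genes that separated downward, besides Aldh1a7, Slc25a20, Lpcat3 and Camk4, were Phf6, Dusp8 and Kdm5d, with log2 differences of -0.42, -0.26 and -0.23.

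Genes named as complex I subunits of the respiratory chain by their symbol numbered 11. Of these, 10 had positive differences and 6 an unadjusted p under 0.05, with a median of 0.35, where 56.8% of all tested genes were positive and 4.03% higher at that p. Their sum was 10530, 10402, 15953 and 16185 in the low set and ran from 14142 to 19041 in the high set, so replicates 1 and 2 alone were below the high set. Ndufa2 and Ndufb8 of the oxidative phosphorylation list are among these genes. Slc and Zfp genes were also taken by symbol. The median was 0.02 over 61 tested Slc genes, with 4 higher and 3 lower at an unadjusted p under 0.05. Of all tested genes, 4.03% were higher and 1.66% lower at that p. For 55 tested Zfp genes the median was -0.02, with 0 at that p. Lars2, a mitochondrial leucyl-tRNA synthetase, and Gm23935, a short RNA gene, were high in the same libraries. Lars2 was at 2984 and 2939 in replicates 4 and 6 and at most 2088 elsewhere, and Gm23935 at 10831 and 9880 there and at most 6455 elsewhere. The 16 tested immunoglobulin genes had a median of 0.09, and their sum was highest in replicate 2, at 1234, against 256 to 680 in the high set.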
